A study of Mus musculus with 45 samples.

Results

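The expression of 6 genes of the neurotrophin system was measured in mouse mammary tumour cell lines: the ligands Bdnf and Ntf3, the receptors Ntrk2, Ntrk3 and Ngfr, and the sorting receptor Sort1. They are 6 of the 54838 genes in the count table. The genes were chosen from these data, because Bdnf ran higher in lung lines than in fat-pad lines, so that difference is given as a description and has no test. The study sequenced polyA RNA of 15 PyMT+ cell lines, each in 3 technical repeats (45 libraries, 9723860 to 16943900 reads on genes). PyMT+ cells come from MMTV-PyMT mice. The transgene of these mice, polyomavirus middle T antigen, drives mammary tumours that spread to the lung.

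The lines fall into 2 origins, YEJH and YEJG, which are the lines from the primary tumour in the mammary gland and are called parental here. From YEJH there were 5 lines of fat pad tumours (YEJH-FP1 to YEJH-FP5) and 5 lung lines (YEJH-M1 to YEJH-M5). From YEJG there were 1 fat-pad line (YEJG-FP) and 2 lung lines (YEJG-M1 and YEJG-M2). All groups carry the same oncogene and no treatment is named, and the derived lines had passed through a transplanted mouse while the parental lines had not. Fat-pad lines grew out of tumours of transplanted PyMT+ cells, and lung lines out of micrometastases left after those tumours were resected. Lung lines are labelled whole lung, apart from YEJH-M3, labelled lung metastases. The sources used here do not say whether YEJG-M1 and YEJG-M2 came from the same mouse, nor whether repeats of a line were separate cultures, so the line is the unit of every comparison and the spread of repeats may be technical. A library, repeat 1 of YEJG-M1, has YEJH_M1 in its library name. Over 12876 genes its log2 values lay nearest to the 2 other YEJG-M1 libraries (r = 0.984, root mean square difference 0.464) and far from YEJH-M1 (r = 0.913, 1.07), and it was kept under its title.

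Neurotrophins are small secreted growth factors, best known for keeping neurons alive and shaping their branches and synapses. Each is made as a precursor that proteases cut to the mature form. Mature BDNF signals through TrkB, the product of Ntrk2, and NT-3, the product of Ntf3, signals mainly through TrkC, the product of Ntrk3. The p75 receptor, the product of Ngfr, binds all neurotrophins and, together with sortilin, the product of Sort1, binds their precursors. Sortilin also steers the BDNF precursor into secretory vesicles. In the mammary gland p75 is known as a protein of basal cells.

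The genes were placed on GRCm39 (GENCODE M39). Bdnf (ENSMUSG00000048482) lies at chr2:109505045-109557475 on the plus strand, with 7590 bases of merged exon. Ngfr (ENSMUSG00000000120) lies at chr11:95459638-95478561 on the minus strand (3452 exon bases) and overlaps no annotated gene. Sort1 (ENSMUSG00000068747) lies at chr3:108191285-108268842 on the plus strand (8208 exon bases). Ntf3 (ENSMUSG00000049107) lies at chr6:126078375-126143873 on the minus strand. Ntrk2 (ENSMUSG00000055254) lies at chr13:58954176-59281784 on the plus strand, and Ntrk3 (ENSMUSG00000059146) at chr7:77825707-78387760 on the minus strand. Bdnf shares 1028 exon bases with the antisense RNA Gm45346, which had 0 to 1 reads in any library, and Sort1 shares 1760 with Gm12522, which had 0 to 4. The kit does not mark strand, so reads in shared bases cannot be told apart by gene.

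Promoter windows of RefSeq (GRCm38.p6, 250 bases before to 50 after a start site) were held for 4 of the 6 genes: 7 windows for Bdnf, which has many alternative first exons, 2 for Ntf3, 1 for Ntrk2 and 1 for Ngfr. A Bdnf and the Ngfr window are printed, since Bdnf is a gene whose change against parental lines is tested below and Ngfr the gene that varied most from line to line. The Bdnf window shown is the 1 of its 7 that holds the octamer marked below, so finding the octamer in it is no result. In Bdnf, capitals mark a CRE-like octamer (TCACGTCA, read on both strands, its last 5 letters also the CRE core CGTCA), which 0.441% of all 32851 windows hold, while 20.8% hold the core. In Ngfr, capitals mark 4 GC boxes (GGGCGG or CCGCCC), a motif that 35.7% of windows hold at least 1 time. The Bdnf window spans chr2:109692186-109692485 on the plus strand and the Ngfr window chr11:95587649-95587948 on the minus strand, each 5′ to 3′ along its gene:
Bdnf window: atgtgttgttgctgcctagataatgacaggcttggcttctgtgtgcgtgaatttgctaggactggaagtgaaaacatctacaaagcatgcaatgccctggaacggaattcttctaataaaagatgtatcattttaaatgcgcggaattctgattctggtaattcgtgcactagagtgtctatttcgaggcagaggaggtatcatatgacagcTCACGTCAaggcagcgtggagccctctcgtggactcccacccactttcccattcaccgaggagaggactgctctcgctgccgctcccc
Ngfr window: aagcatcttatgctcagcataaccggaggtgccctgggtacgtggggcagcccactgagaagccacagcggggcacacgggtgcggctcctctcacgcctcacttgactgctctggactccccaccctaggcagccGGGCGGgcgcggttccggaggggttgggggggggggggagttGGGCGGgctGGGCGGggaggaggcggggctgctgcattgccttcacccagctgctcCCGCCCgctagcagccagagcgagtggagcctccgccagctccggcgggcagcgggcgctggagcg

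The octamer starts at position 213 of its 300 bases, counted from the 5′ end, and none of the other 6 Bdnf windows holds it. The Ngfr window is 71.7% G or C, against a median of 52.7% over all windows. The counts are per gene and do not tell which Bdnf promoter was in use.

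Of the 6 genes 3, Bdnf, Ngfr and Sort1, were expressed in every library. A normalised count below is the raw count scaled to a mean effective library of 14112046 reads by TMM, and ± is the SD. Per kilobase of exon, the median line had 10.9 CPM (a gene's count scaled to its library's effective size) of Ngfr, 0.820 of Bdnf and 0.342 of Sort1. On the same scale Ntf5, another ligand of TrkB, stood at 0.546. The other sorting genes Sorcs2 and Sorl1 stood at 4.75 and 2.91. Ngfr thus had the highest median per length of these 6 genes, and Sort1 the lowest. Repeats of a line varied by 16% for Bdnf, 10.9% for Ngfr and 18.3% for Sort1 (root mean square CV), where counting alone gives 12.4%, 7.06% and 16.6%.

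**Figure D1:**
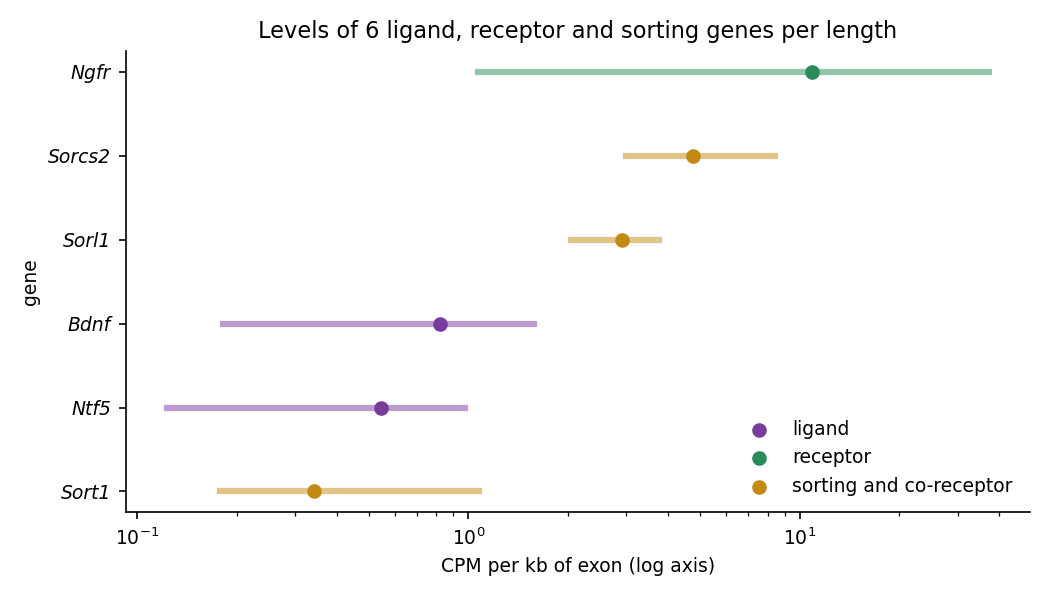
CPM per kilobase of exon (log axis) of 6 ligand, receptor and sorting genes; the point is the median of 15 line means and the bar runs from the lowest to the highest line. Ngfr (10.9) stands above Bdnf (0.820) and Sort1 (0.342) and has the widest bar (1.07 to 37.2).

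Bdnf, the ligand of TrkB, was chosen for its higher level in lung lines, so their place above fat-pad lines was known in advance. In YEJH lung lines its normalised counts were 109 ± 26.1 (M1), 153 ± 23.7 (M2), 91.4 ± 11.3 (M3), 126 ± 12.6 (M4) and 95.7 ± 7.57 (M5), each over 3 repeats. In YEJH fat-pad lines they were 71.3 ± 14.2 (FP1), 87.9 ± 12.9 (FP2), 60.3 ± 6.26 (FP3), 82.7 ± 11 (FP4) and 78.8 ± 0.866 (FP5). In YEJG lines they were 169 ± 4.03 (M1), 151 ± 19.9 (M2) and 75.8 ± 10.3 (FP). These are bulk libraries, in which fewer expressing cells and less RNA per cell cannot be told apart. The 7 lung lines hold the first 7 ranks, the 6 fat-pad lines the next 6 and both parental lines the last.

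The lung lines averaged 128 ± 30.6 (n = 7 lines) and the fat-pad lines 76.1 ± 9.63 (n = 6), a ratio of 1.68. Within YEJH the means were 115 ± 25.0 and 76.2 ± 10.8 (n = 5 and 5), a ratio of 1.51, and within YEJG 160 and 75.8, a ratio of 2.12. Line means of the sites did not overlap, a pattern with lung above fat-pad that 0.0996% of the 15056 genes tested show. Over 8 alternatives, 6 to 7 of the lung lines lay above every fat-pad line, so the full separation did not always hold. This contrast chose the genes, and nothing is read from it. At the boundary the lowest lung line, YEJH-M3 (91.4), and the highest fat-pad line, YEJH-FP2 (87.9), differed by 3.5, less than their pooled technical SD of 12.2. Single libraries overlapped, from 78.5 in YEJH-M3 repeat 1 to 102 in YEJH-FP2 repeat 3. The fitted log2 difference of lung minus fat-pad was 0.74 (SE 0.16). Of the 14 steps between neighbours in the order of lines, 4 exceeded 1 technical SD, and most neighbours therefore do not differ beyond their spread.

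**Figure D2:**
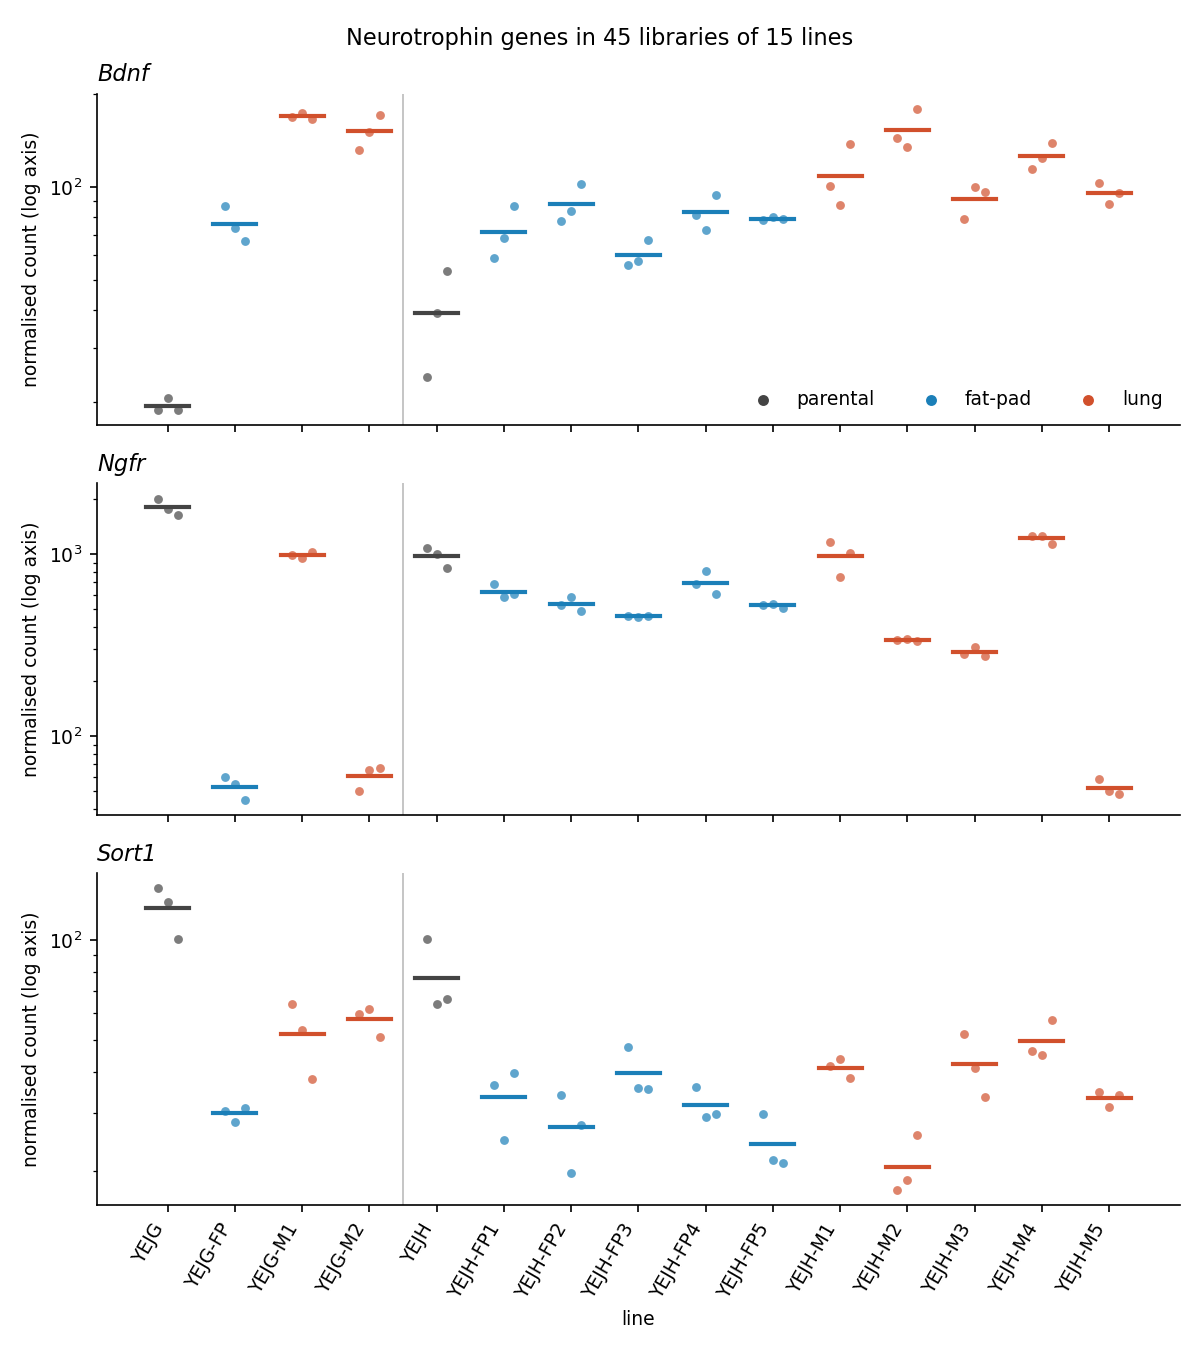
Normalised counts (log axis) of Bdnf, Ngfr and Sort1 in each library by line; points are technical repeats, bars are line means, and colours give parental, fat-pad and lung lines. Bdnf lies lowest and Sort1 highest in the parental lines, while Ngfr falls to 52.1 to 60.6 in YEJG-FP, YEJG-M2 and YEJH-M5.

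Both YEJG lung lines, which had high Bdnf, also stood apart in other genes. Epcam, an epithelial adhesion gene, was at 1796 in YEJG-M1 and 2792 in YEJG-M2, against 4859 to 10483 in the other 13 lines. The fibroblast list (Col1a1, Col1a2, Col3a1, Pdgfra, Dcn and Thy1, of which 5 of 6 had reads and Thy1 was at 0) summed to a mean of 36.2 CPM in YEJG lung lines. That sum was 5.94 in YEJG-FP, 4.67 and 4.51 in YEJH fat-pad and lung lines, and 1.93 and 3.06 in the YEJG and YEJH parental lines. Their part in the Bdnf level of YEJG lung lines was not tested.

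The question of how derived lines differ from the lines they came from was not itself used to choose the genes. The lung lines that chose Bdnf are part of the derived side, so for Bdnf it is not free of that choice. Bdnf was lowest in the parental lines. Its 3 repeats read 18.9, 20.6 and 18.9 in YEJG, and 24.2, 39.1 and 53.4 in YEJH. All 13 derived line means, from 60.3 to 169, lay above both parental means (19.5 ± 1.01 and 38.9 ± 14.6), which 4.55% of genes tested show. The ratio of derived to parental was 6.78 in YEJG and 2.46 in YEJH. Sort1 ran the other way, at 125 ± 21.9 in YEJG and 77.0 ± 20.6 in YEJH, against 20.7 to 57.6 in derived lines. All 13 derived lines lay below both parental lines for Sort1, which 3.53% of genes show, with ratios of parental to derived of 2.69 in YEJG and 2.24 in YEJH.

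In edgeR's quasi-likelihood test over line sums, with origin and site in the model, 2 of the 3 testable genes were called in derived against parental, where 7.74% of 16361 genes were. Bdnf rose by 1.72 on the log2 scale (SE 0.30, adjusted p = 0.0058). Sort1 fell by 1.32 (SE 0.24, adjusted p = 0.0074). Ngfr differed by -1.67 (SE 0.95, adjusted p = 0.320) and was not called, though limma with libraries kept apart called it (-2.03, adjusted p = 0.0043). Its size rested on single lines, from -0.74 without the YEJG parental line to -3.17 without YEJG-M1 (adjusted p = 0.103). It was -0.76 in YEJH lines and -3.44 in YEJG lines alone. Since lung lines chose Bdnf, fat-pad lines alone were also set against parental lines, a choice made after seeing the data: Bdnf 1.36 (SE 0.31, adjusted p = 0.030), Sort1 -1.50 (SE 0.27, adjusted p = 0.012), Ngfr -1.84 (SE 1.09, adjusted p = 0.401), where 3.55% of genes were called.

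Each origin has 1 parental line, so these calls rest on 2 lines on the parental side. Parental state cannot be told apart from anything else that set those lines apart. A fit without either of them has 1 parental line, and its p-value measures no spread between parental lines. Without the YEJG parental line neither gene was called (Bdnf 1.2, adjusted p = 0.086, and Sort1 -1.13, adjusted p = 0.135), and 162 genes were called in place of 1267. Without the YEJH parental line both were (2.57 and -1.53, adjusted p = 0.00076 and 0.016). The change of Bdnf was larger in YEJG than in YEJH by 1.52 on the log2 scale (SE 0.68), but the test of that difference had an adjusted p of 0.294, in edgeR over 17110 genes of which 1.84% were called. For Sort1 the same difference was -0.31 (SE 0.57, adjusted p = 0.842), and for Ngfr -1.55 (SE 1.89, adjusted p = 0.744). Ntrk3 passed the filter in that fit, but with 0 reads in both parental lines its difference could not be estimated (adjusted p = 1.0). By edgeR 0 of these 4 genes were called there and 1, Bdnf, had an unadjusted p under 0.05, and no other tool was run. Of the mammary epithelial markers named at the end 2 of 5 tested were lower in derived than in parental lines, and of the fibroblast markers 1 of 4 was higher. Their part in the result was not tested.

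**Figure D3:**
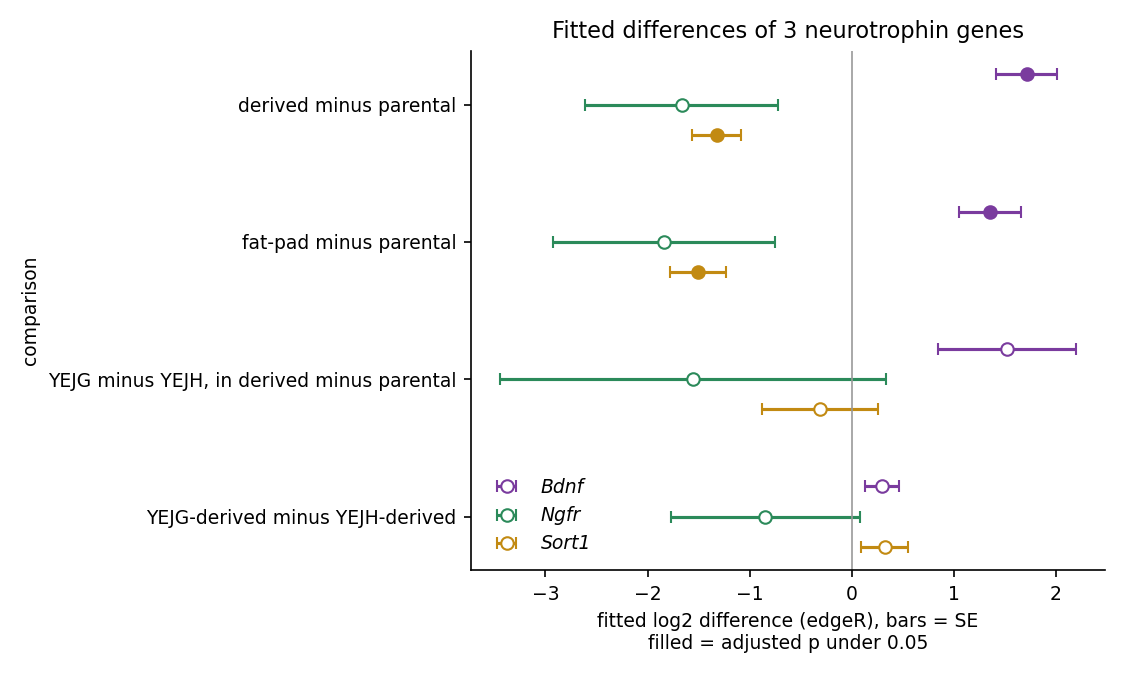
Fitted log2 differences (x axis) of Bdnf, Ngfr and Sort1 in 4 comparisons (y axis); bars are SE and filled points have an adjusted p under 0.05 in edgeR. Bdnf (1.72) and Sort1 (-1.32) are filled in derived minus parental, and no point is filled between the origins.

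Ngfr, which encodes p75, overlapped between sites and between origins and had the widest range of the 3 genes. YEJG had 1812 ± 196 and YEJH 975 ± 128. The YEJH fat-pad lines lay close together, at 624, 531, 456, 698 and 523 for FP1 to FP5. The YEJH lung lines spread over 979 (M1), 338 (M2), 289 (M3), 1220 (M4) and 52.1 (M5), a ratio of 23.4 between M4 and M5. YEJG-M1 had 992 ± 38.7 while YEJG-M2 had 60.6 ± 9.22 and YEJG-FP 52.9 ± 7.73. YEJH-M5, YEJG-FP and YEJG-M2 were thus low and nearly level with each other, 2 from lung and 1 from fat pad, 2 of YEJG origin and 1 of YEJH. The next line up, YEJH-M3, had 289.

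In the spread of lines within a group, where p-values measure only the scatter of technical repeats, all 3 testable genes were called between the YEJH lung lines, against 31.4% of 14339 genes. The fitted log2 range was 4.54 for Ngfr (M4 over M5, adjusted p = 2.1e-23), 1.24 for Sort1 (M4 over M2, adjusted p = 0.00094) and 0.77 for Bdnf (M2 over M3, adjusted p = 0.00092). Between YEJH fat-pad lines 1 of 3 was called, against 1.8% of genes: Ngfr with a range of 0.62 (FP4 over FP3, adjusted p = 0.0088). Bdnf and Sort1 had ranges of 0.55 and 0.72 there (adjusted p = 0.585 and 0.629). YEJG-M1 stood above YEJG-M2 by 4.02 for Ngfr (adjusted p = 2.6e-21), the 1 called gene of 3, where 13.4% of genes were called. Bdnf and Sort1 differed there by 0.19 and 0.16 (adjusted p = 0.527 and 0.736).

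The line YEJH-M2 had the highest Bdnf and the lowest Sort1 of the YEJH lung lines, and without it the calls of both were lost (ranges 0.46 and 0.56, adjusted p = 0.111 and 0.215). Without repeat 2 of each line they were lost too, with fewer libraries and ranges no smaller (0.87 and 1.27, adjusted p = 0.089 and 0.073). The Ngfr call between fat-pad lines was lost without FP3 or FP4 (adjusted p = 0.123 and 0.204) and without any 1 of the repeats (0.132 to 0.405). The Ngfr call among YEJH lung lines held with any 1 of these lines or repeats left out, and that between YEJG-M1 and YEJG-M2 with any 1 of the repeats left out. Between sites the fitted Ngfr difference was 0.21 with an SE of 0.71, and for Sort1 it was 0.44 with an SE of 0.21, both given as descriptions.

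Sort1, the sorting receptor, lay between 20.7 and 57.6 in all derived lines. It read 33.6, 27.1, 39.6, 31.7 and 24.2 in YEJH-FP1 to YEJH-FP5 and 41.1, 20.7, 42.2, 49.4 and 33.3 in YEJH-M1 to YEJH-M5. YEJG-FP had 29.9, YEJG-M1 51.8 and YEJG-M2 57.6. Of 14 neighbouring steps in the order of lines, 2 exceeded 1 technical SD, and both stood at the top, from YEJG to YEJH and from YEJH to the derived lines.

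Between the origins none of the 3 was called, in a comparison of 3 YEJG-derived with 10 YEJH-derived lines that called 40.8% of 15815 genes. Bdnf was at 132 ± 49.6 and 95.5 ± 27.3, a fitted log2 difference with site in the model of 0.30 (SE 0.17, adjusted p = 0.181). Sort1 was at 46.4 ± 14.6 and 34.3 ± 8.91 (0.32, SE 0.23, adjusted p = 0.288). Ngfr was at 369 ± 540 and 571 ± 338 (-0.84, SE 0.93, adjusted p = 0.504). By edgeR 0 of 3 had an unadjusted p under 0.05, and DESeq2 also called 0, but limma with libraries kept apart called 3. Beside this, 4 of 5 tested mammary epithelial markers were lower and 4 of 4 fibroblast markers higher in YEJG-derived lines, whose part was not tested. Without YEJG-M1, the YEJG line with high Ngfr, the Ngfr difference became -3.31 (adjusted p = 0.018). It was -0.12 without YEJG-FP, -0.35 without YEJG-M2 and -0.48 without YEJH-M4 (adjusted p = 0.932, 0.809 and 0.734), and -0.13 in lung lines only (adjusted p = 0.947), so its size rested on single lines.

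Ntf3, Ntrk2 and Ntrk3 did not pass the filter on low counts in the comparisons of origins, of derived with parental lines and of lines within a group. Ntf3 had 0 reads in all 45 libraries, which allows up to 0.177 to 0.309 CPM in a library (3 reads, counting error only). Ntrk2, the TrkB gene and so the main receptor for BDNF, had 14 reads in 10 libraries, with at most 4 in 1 library. Of these, 9 fell in YEJH lung libraries, 4 in YEJH fat-pad libraries and 1 in YEJG-FP. The parental and YEJG lung libraries had 0.

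Ntrk3, the TrkC gene, had 35 reads in 14 libraries. YEJG lung lines held 26 of them, with a read in 6 of 6 libraries: 1, 5 and 2 in YEJG-M1 and 3, 7 and 8 in YEJG-M2. YEJG-FP had 3, the YEJH fat-pad lines 4 in all, the YEJH lung lines 2 and both parental lines 0. Without the filter, edgeR called Ntrk3 between origins (log2 difference 3.56, adjusted p = 0.00078), a value that rests on counts of at most 8 a library. Ngfr had at least 40 reads in every library.

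**Figure D4:**
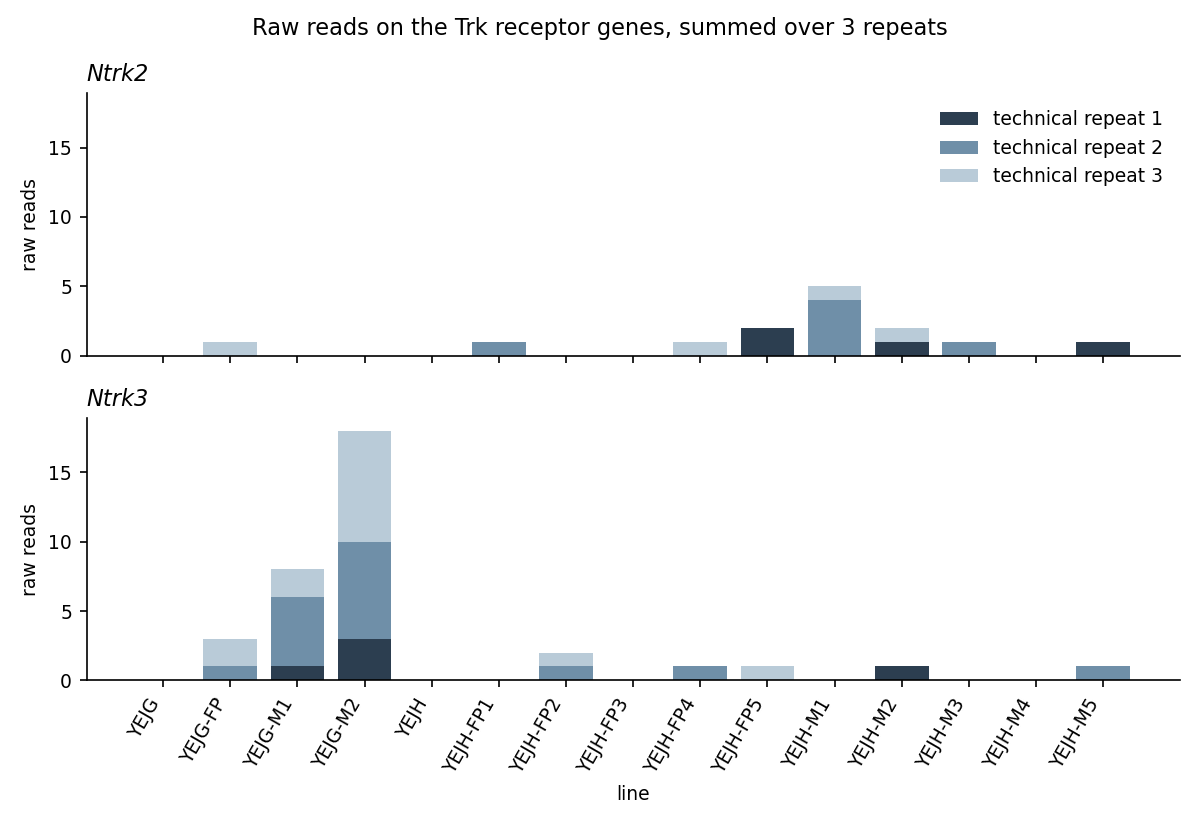
Raw reads (y axis) on Ntrk2 and Ntrk3 in each line (x axis), stacked by technical repeat. Of 35 Ntrk3 reads 26 lie in YEJG-M1 and YEJG-M2, and the 14 Ntrk2 reads are scattered over derived lines.

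A list of 98 neurotrophin pathway genes, drawn up with earlier results of these data known, places the 6 in their setting. In derived against parental, 12 of 81 tested genes passed the test, 1 higher and 11 lower, beside 7.74% of all genes (575 higher and 692 lower), with a median log2 difference of -0.054 against 0.0042 over all genes. Bdnf was the 1 that rose. Those that fell are named because they are few, after their values were seen. They include Ntf5 (-1.14), the ligand that shares TrkB with BDNF, at 29.6 in YEJG and 42.1 in YEJH and at 10.7 ± 7.64 and 23.3 ± 3.56 in their derived lines. Pcsk6 (-1.61), a convertase that cuts precursor proteins, was at 2217 and 1981 in the parental lines, against 565 ± 501 and 870 ± 331. Bex1 (-4.49), a p75 binding protein, was low everywhere, at 4.54 and 21.3 in parental lines and at most 3.11 in a derived line.

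The p75 adaptors Traf4 (-0.49) and Bex3 (-0.28), the Trk adaptor Sh2b1 (-0.30), the transcription factor Usf2 (-0.25) and the response genes Fosb (-1.07) and Dusp4 (-0.73) fell as well. The docking protein gene Gab1 (-1.69) was called too, but its parental level was 1054 in YEJG and 99.2 in YEJH, where the derived lines had 115 ± 13.8. Its call therefore rests on the YEJG parental line.

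**Figure D5:**
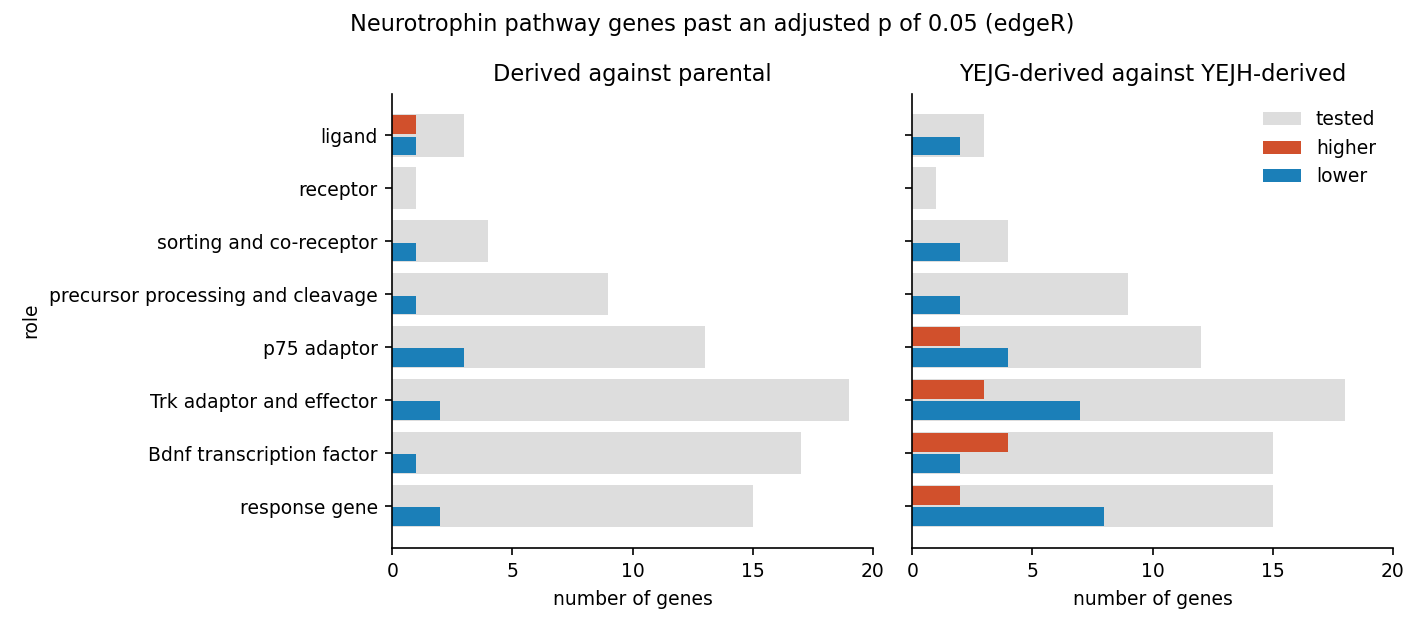
Number of neurotrophin pathway genes (x axis) by role (y axis) in derived against parental and in YEJG-derived against YEJH-derived lines; grey bars are genes tested, red and blue bars those higher and lower at an adjusted p under 0.05 in edgeR. In derived lines 1 of 12 called genes was higher, and between origins 11 of 38.

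Between origins 38 of 77 tested genes passed, 11 higher in YEJG-derived lines and 27 lower, beside the 40.8% of all genes, with a median of -0.14 against 0.0032. Among ligands Ntf5 (-1.16) was lower in YEJG-derived lines, at 10.7 ± 7.64 against 23.3 ± 3.56. Among sorting genes Sorcs2 (-0.60) and Sorl1 (-0.31) were lower. Among proteases that act on the precursors Plat (-1.50), the tissue plasminogen activator, was lower at 177 ± 64.0 against 497 ± 118, and so was Adam10 (-0.44), a sheddase.

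Adaptors moved both ways. Of the Trk adaptors Shc4 (1.11), Irs2 (0.64) and Gab1 (0.32) were higher, and Irs1 (-1.03), Grb2 (-0.96) and Sos1 (-0.38) lower. Of the genes listed with p75, Fscn1 (1.28), an actin bundler, and Maged1 (0.32), which binds p75, were higher, and Arhgdia (-0.84), Traf4 (-0.59) and Prdm4 (-0.35) lower. Of factors known to act on Bdnf transcription Ppargc1a (1.88), Crtc1 (0.50) and Srf (0.39) were higher, and Bhlhe40 (-1.11) and Crem (-0.44) lower. Ppargc1a was low everywhere, at 5.63 ± 1.68 in YEJG-derived and 1.54 ± 1.06 in YEJH-derived lines, and at most 7.04 in a line.

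Of 15 response genes, early genes and feedback inhibitors of MAP kinase signalling, 2 were higher and 8 lower. Egr2 (2.60) had 36.9 ± 17.9 in YEJG-derived and 7.0 ± 3.28 in YEJH-derived lines, and Arc (1.48) was higher as well. Fos (-2.09) had 55.8 ± 57.6 against 220 ± 49.3, Fosb (-1.78) 21.5 ± 10.9 against 75.3 ± 7.96, and Spry4 (-1.41) 14.4 ± 5.09 against 38.2 ± 13.8. Among YEJH lung lines 30 of 80 pathway genes differed, beside 31.4% of all genes. Among YEJH fat-pad lines 4 of 80 did, beside 1.8% of all genes, and between YEJG-M1 and YEJG-M2 17 of 80, beside 13.4%.

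The genes whose line means went most like Bdnf over 15 lines (log2 values, 10532 genes with a mean of at least 50 counts) were Smc3 (r = 0.94), Glipr1 (0.93), Igfbp7 (0.93), Tm7sf3 (0.92) and Rassf5 (0.92). Over the 10 YEJH-derived lines they were Tmem176b (0.94), Styk1 (0.92), G930009F23Rik (0.92), Tmem176a (0.92) and Rap1gap2 (0.91). Smc3 encodes a cohesin subunit and rose from 1411 in the YEJG parental line to 2301 in YEJG-M1. The genes most like Ngfr were Map3k5 (0.89), Capn2 (0.88) and Hdac6 (0.84), and those most like Sort1 were Pomgnt2 (0.87) and Skida1 (0.85). These are the highest of many correlations over points that share libraries and parental lines. Bdnf and Ngfr themselves had r = -0.33 (Spearman's rho -0.12) over the 15 lines and r = 0.045 without the 2 lines farthest in Bdnf.

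The mammary epithelial list (Epcam, Cdh1, Krt8, Krt18, Krt5 and Krt14) summed to 2824 to 7343 CPM in every line. All of these were detected in every library except the basal keratin Krt5, which was nearly absent, at most 1.65 normalised counts in a line. Krt14, another basal keratin, ran from 1842 in YEJG-M2 to 19296 in the YEJG parental line. The leukocyte list did not exceed 0.251 CPM, the endothelial list 0.857 and the lung epithelial list 1.28, with Sftpc, Sftpa1 and Sftpb at 0. The neuron list summed to 22.1 to 43.9 with Snap25, Syt1 and Nefl at 0, and was carried by Map2 (262 to 568 normalised counts) and Tubb3 (4.44 to 172, highest in YEJG-M1). The Schwann cell list summed to 22.3 to 95.6, nearly all of it Erbb3, which epithelia also express, with Foxd3 at 0 and Sox10 at most 0.335.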

How the data were processed

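RNA of 15 PyMT+ lines, plated for 24 h, was sequenced by the authors as polyA libraries (TruSeq kit, which does not mark strand), 3 technical repeats a line. The authors deposited raw gene counts in 1 table; the submitters' processing notes name FastQC, HISAT2, SAMtools 1.2 and HTSeq and the build GRCh38, although the gene identifiers are mouse. Identifiers were matched to GENCODE M39 on GRCm39 (92.6% of 54838 genes), and 5 summary rows that name no gene (31.6 to 43.3% of reads a library) were left out.

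Groups came from the titles. Counts were summed per line and tested with edgeR 4.0.16 (R 4.3.3; TMM, filterByExpr, quasi-likelihood, Benjamini-Hochberg over all genes tested, threshold 0.05): YEJG-derived against YEJH-derived with site, and derived (the mean of lung and fat-pad) against parental with site and origin. Lines of a group were compared on 45 libraries with library set, the 2 prefixes of the library names (22 and 23 libraries), as covariate. Those p-values measure technical spread. The tests were tested on simulated data with known changes of 1.5, 2 and 4 fold. Derived against parental recovered 29.9%, 65.7% and 92.4% of these, and the test of origins 65.7%, 80.6% and 100%. A gene not called may thus still have changed. Alternatives used DESeq2 1.42.0, limma 3.58.1, other scaling, no filter, 1 library set, and each line or repeat left out.

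Named genes are the 6 genes, up to 3 called pathway genes a role and direction with the largest difference between origins, the 5 genes most like Bdnf (3 for Ngfr and Sort1) in log2(count + 1) among genes with a mean of at least 50, and the cell type markers. A few genes that this rule names are not reported here. The genes and lists were chosen with earlier results of these data known.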

Additional observations from a re-analysis of the deposited data

How the results depend on the processing

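Counting error made up most of the technical spread of Bdnf and Sort1, and there were only 2 parental lines. Of the 6 genes, those called between origins numbered 3 in limma on single libraries, 1 when limma took repeat number as a replicate block (Bdnf), 1 without the filter on low counts (Ntrk3) and 0 to 1 with a line left out (1 without YEJG-M1). Those called in derived against parental numbered 3 in limma with and without the block (Ngfr added). They numbered 2 with any 1 derived line left out, and both calls were lost without the YEJG parental line. The fitted log2 difference of Bdnf was 1.2 in YEJH lines only and 2.5 in YEJG lines only. Each of these fits has 1 parental line, so its p-value measures no spread between parental lines and no call is read from it. Those called between YEJH lung lines numbered 1 to 3 with a line or repeat left out, and between YEJH fat-pad lines 0 to 1. The fitted Ngfr difference of lung minus fat-pad, 0.21, was 0.0091 in YEJH-derived lines only and -0.50 in the same lines with line number as a replicate block, and with a line left out it ran from -0.10 without YEJH-M4 and -0.02 without YEJG-FP to 0.42 without YEJG-M2. The cause of these changes was not tested.

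In YEJH-derived lines only, the fitted lung minus fat-pad difference was 0.58 for Bdnf and 0.25 for Sort1, and with line number as a replicate block 0.57 and 0.22. Same-numbered YEJH lines did not deviate together (mean r = -0.052, from -0.17 to 0.033). Nor did same-numbered technical repeats (mean r = 0.0043, and 17 of 45 libraries correlated best with their own number). Neither number was used to pair samples in the main fits. Low correlation cannot show whether same-numbered lines came from the same mouse, so pairing by mouse is not settled.

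Genes called in derived against parental, 1267, numbered 2070 in DESeq2, 2573 in limma, 2651 in limma with the block, 185 without the origin covariate, 726 in library set B, 2266 without YEJH, 162 without YEJG, 615 in YEJH lines and 412 in YEJG lines. Between YEJH lung lines 4499 became 1976 without repeat 2 and 2788 without repeat 3. Between YEJH fat-pad lines 258 became 59 to 117 without a repeat, 105 without FP5 and 452 without the filter. Between YEJG-M1 and YEJG-M2 1917 became 932 to 1326 without a repeat. Of 96 alternatives for how many of the 6 genes were called, or how many lung lines lay above every fat-pad line in Bdnf, 82 gave a number within 1.5 times the main one, among them the 3 in place of 2 by limma.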
